A study of Mus musculus with 6 samples.

Results

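Lpin1 and 9 genes that make, modify or burn fatty acids were followed in thymocyte RNA from mice with and without the alpha chain of the interleukin-3 receptor. The 10 genes, Lpin1, Lpin2, Fasn, Acaca, Acly, Scd1, Scd2, Elovl6, Fads1 and Cpt1a, were taken by symbol from the 55536 genes of the count table, and all 10 were among the 18690 genes tested. Lpin1 was chosen by its level, because 1 library stood far above the others, so its values are given as a description with no test. The other 9 were chosen as lipid genes, to see whether they shared that pattern.

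The samples were steady-state thymocytes, which are T cells in development, from 3 mice of genotype Il3ra+/+ (wildtype) and 3 of genotype Il3ra-/- (knockout), and the labels name no treatment. The receptor chain binds interleukin-3, a cytokine best known for its action on myeloid cells and their progenitors. The sources used here give no age, sex or strain, no design of the Il3ra allele and no sorting of the thymocytes. Messenger RNA was sequenced with 1 library per mouse, and the replicate numbers are those of the labels.

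The libraries held 55747682 to 82684219 counts. The targeted gene, Il3ra, had no lower level in labelled knockout, at 7.80, 6.51 and 6.11 CPM in wildtype and 7.95, 8.02 and 7.39 CPM in labelled knockout (replicates 1, 2 and 3 in that order here and below), so its level does not check the labels. The alpha chain's deleted stretch is not known here, and transcript outside it would still be counted. CPM are counts relative to the library total, scaled by the trimmed mean of M-values (TMM). Xist, which is transcribed from the inactive X chromosome of female cells, was high in replicate 1 of either genotype, with 88078 counts (wildtype) and 128236 counts (labelled knockout), and had 8 to 57 counts in the other 4 libraries. Summed CPM of 11 thymocyte markers lay between 10987 and 12552 in wildtype and between 9544 and 10283 in labelled knockout.

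Lipins are phosphatidate phosphatases, which turn phosphatidic acid into the diacylglycerol from which triglycerides and major phospholipids are built, and Lpin1 also acts in the nucleus as a coactivator of genes of fatty acid oxidation. In fatty acid synthesis, ATP-citrate lyase (Acly) makes cytosolic acetyl-CoA, acetyl-CoA carboxylase (Acaca) turns it into malonyl-CoA, and fatty acid synthase (Fasn) assembles palmitate. The chain is then lengthened by Elovl6 and desaturated by Scd1 and Scd2, while Fads1 desaturates polyunsaturated fatty acids. Cpt1a controls the entry of fatty acids into mitochondria for oxidation and is inhibited by malonyl-CoA. Many of these genes are known targets of the sterol-regulated SREBP transcription factors, and activated or dividing T cells are known to use the synthetic route to make membrane.

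Promoter windows of 250 bases before to 50 bases after the annotated start were taken from RefSeq (GRCm38.p6), which gave an entry for 7 of the 10 genes: Lpin1, Lpin2, Fasn, Acaca, Acly, Elovl6 and Cpt1a. The windows of Lpin1, the gene with the single high library, of Acaca and Elovl6, whose levels did not overlap between genotypes, and of Fasn, whose levels did, are shown 5′ to 3′ on the strand of the gene. They lie at chr12:16610917-16611216 on the minus strand for Lpin1, chr11:84195188-84195487 on the plus strand for Acaca, chr3:129532136-129532435 on the plus strand for Elovl6 and chr11:120824498-120824797 on the minus strand for Fasn. The Acaca window belongs to a start inside the gene as GENCODE M21 draws it. Capitals mark the letters CCAAT on either strand.
Lpin1: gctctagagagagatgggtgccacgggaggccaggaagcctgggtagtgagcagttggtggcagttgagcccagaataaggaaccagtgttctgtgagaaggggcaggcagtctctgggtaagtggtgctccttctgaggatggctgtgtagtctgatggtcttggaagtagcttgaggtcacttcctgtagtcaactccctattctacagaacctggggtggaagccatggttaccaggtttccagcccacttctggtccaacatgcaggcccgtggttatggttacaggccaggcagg
Acaca: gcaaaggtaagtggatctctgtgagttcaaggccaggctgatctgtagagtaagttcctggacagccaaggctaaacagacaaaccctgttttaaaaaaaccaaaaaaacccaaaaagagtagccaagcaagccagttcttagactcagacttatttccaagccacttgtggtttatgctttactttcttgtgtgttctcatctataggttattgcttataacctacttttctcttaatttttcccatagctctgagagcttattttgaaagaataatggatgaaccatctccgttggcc
Elovl6: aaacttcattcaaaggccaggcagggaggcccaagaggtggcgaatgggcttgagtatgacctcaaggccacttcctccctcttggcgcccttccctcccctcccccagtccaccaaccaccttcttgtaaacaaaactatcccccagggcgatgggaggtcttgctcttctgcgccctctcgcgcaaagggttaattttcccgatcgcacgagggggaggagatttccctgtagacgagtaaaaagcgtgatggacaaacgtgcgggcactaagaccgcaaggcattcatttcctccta
Fasn: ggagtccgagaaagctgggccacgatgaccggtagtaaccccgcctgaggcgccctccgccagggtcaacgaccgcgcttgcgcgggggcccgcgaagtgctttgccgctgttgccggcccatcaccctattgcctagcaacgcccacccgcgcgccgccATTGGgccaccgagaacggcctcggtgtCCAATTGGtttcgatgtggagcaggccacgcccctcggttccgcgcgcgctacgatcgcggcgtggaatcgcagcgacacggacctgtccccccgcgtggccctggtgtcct

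These windows were searched on both strands for the sterol element TCACNCCAC, the E-box CACGTG, the CCAAT box CCAAT and the GC box GGGCGG. Among 32851 RefSeq windows of this length, 1.24% held the sterol element, 7.15% the E-box, 37.4% the CCAAT box and 35.7% the GC box. None of the 4 motifs was present in the windows of Lpin1, Acaca and Elovl6. The Fasn window held the CCAAT letters 3 times, with the match's first base 90, 62 and 59 bases before the start, the last 2 overlapping. Of the windows not shown, that of Acly held the GC box 4 times and the CCAAT letters 1 time. That of Cpt1a held the GC box 3 times and the CCAAT letters 1 time. Lpin2 has several windows: 1 held the E-box 1 time and the GC box 2 times, another the GC box 1 time and another the CCAAT letters 3 times. The sterol element was in no window of the 7 genes. Matches are a description of these letters, and a window without one says nothing about binding.

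Lpin1 (ENSMUSG00000020593, chr12:16535669-16610966, minus strand of GRCm38) was high in 1 library alone. Its level was 27.4, 32.8 and 26.4 CPM in the 3 wildtype libraries and 98.8, 23.2 and 19.1 CPM in the 3 labelled knockout libraries. The counts behind these were 1635, 1893 and 1721 in wildtype and 5982, 1948 and 1328 in labelled knockout. Labelled knockout replicate 1 was thus 3.02 times the highest of the other 5 libraries, while the other two labelled knockout libraries were below all 3 wildtype libraries.

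The Lpin1 means were 28.8 ± 3.43 CPM in wildtype and 47.0 ± 44.9 CPM in labelled knockout (SD, n = 3 each), so the spread in labelled knockout was close to its mean. The fitted log2 fold change of 0.70 ± 0.76 (SE, labelled knockout over wildtype) became -0.44 without labelled knockout replicate 1, and -0.48 without replicate 1 of each genotype. Between the libraries with high Xist, labelled knockout was 3.60 times wildtype, and between those with low Xist the ratio of means was 0.715.

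**Figure D1:**
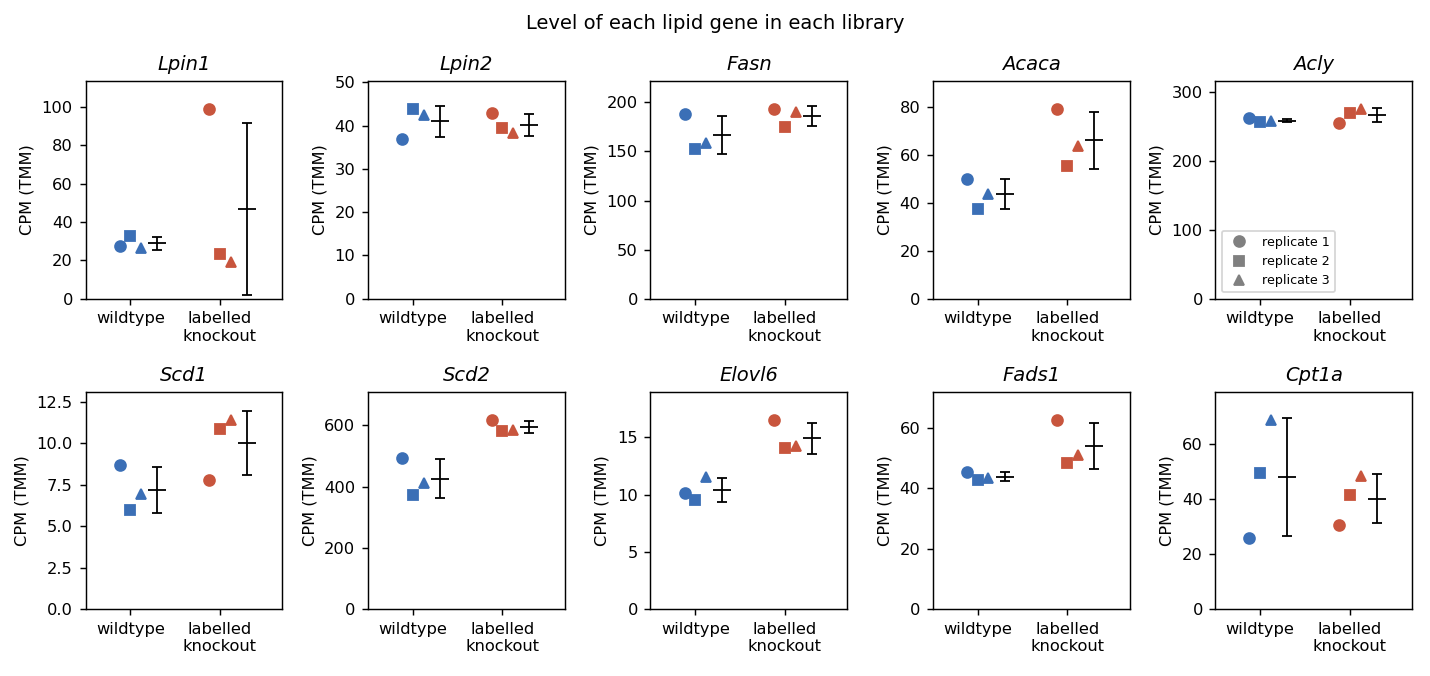
Level of each of the 10 genes in every library, in TMM-scaled CPM on a separate axis per gene, with wildtype and labelled knockout side by side, 1 marker shape per replicate number and the mean ± SD of each group beside its points. Lpin1 has 1 labelled knockout point at 98.8 CPM and 5 points between 19.1 and 32.8 CPM, while Acaca, Scd2, Elovl6 and Fads1 have all 3 labelled knockout points above all 3 wildtype points.

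Labelled knockout replicate 1 was more than 1.5 times the highest of the other 5 libraries for 222 genes, or 1.19% of those tested. Of the 13948 tested genes with a mean of at least 1 CPM, 46 passed this mark and Lpin1 had the highest ratio. Without that cut on the mean, 4 tested genes, Lpin1 among them, had a ratio at least as high as its own. By the 1.5-fold mark, each of the other libraries stood above the rest for 53 to 397 genes, the 397 in labelled knockout replicate 3. None of the other 9 lipid genes passed it in labelled knockout replicate 1. Their ratios to the highest of the other 5 libraries ran from 0.446 for Cpt1a to 1.24 for Acaca, and against the mean of the other 5 libraries Acaca alone of the 9 passed, at 1.58. Of the 9, 5 had their highest value in this library (Fasn, Acaca, Scd2, Elovl6 and Fads1), against 18.8% of tested genes. The excess of Lpin1 in that library was therefore not shared at a like size by any of the 9.

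**Figure D2:**
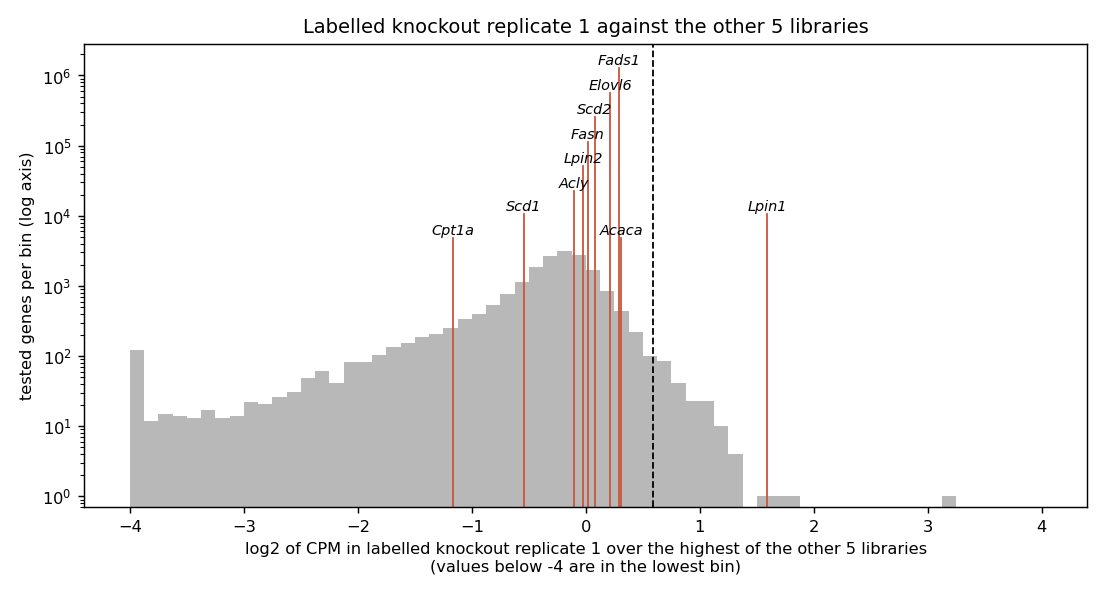
Number of tested genes (log axis) by the log2 ratio of CPM in labelled knockout replicate 1 to the highest of the other 5 libraries, with the 10 genes marked by lines and the 1.5-fold mark dashed. Lpin1, at 3.02-fold, lies beyond the dashed line and the other 9 lie below it, between 0.446-fold and 1.24-fold.

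Lpin2 (chr17:71182560-71249817), the other lipin with a level high enough to test, was nearly even across the 6 libraries. It was at 36.8, 43.8 and 42.4 CPM in wildtype and 43.0, 39.4 and 38.2 CPM in labelled knockout, with means of 41.0 ± 3.67 and 40.2 ± 2.5 CPM (SD, n = 3 each). The groups overlapped, and the log2 fold change was -0.03 ± 0.10, with an edgeR adjusted p of 0.931 (quasi-likelihood test, Benjamini-Hochberg over all genes tested, as for every adjusted p below). It was 0.026 when wildtype replicate 2 was left out, and 0.0077 when labelled knockout replicate 3 was. Lpin3, the third lipin, was left out by the filter on low counts, with at most 0.101 CPM in any library.

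Acly (chr11:100476353-100528000), the first enzyme of the synthetic route, was the steadiest of the 10 genes, with a highest level only 1.07 times its lowest. Its level was 261, 256 and 257 CPM in wildtype and 255, 270 and 274 CPM in labelled knockout, and the groups overlapped. The log2 fold change was 0.05 ± 0.09 (edgeR adjusted p = 0.856).

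Acaca (chr11:84129672-84401651), which encodes the carboxylase that commits acetyl-CoA to synthesis, was higher in every labelled knockout library than in every wildtype library. It was at 50.2, 37.6 and 43.7 CPM in wildtype and 79.1, 55.4 and 63.8 CPM in labelled knockout, with means of 43.8 ± 6.31 and 66.1 ± 12 CPM (SD, n = 3 each). The fold was 1.51 (log2 fold change 0.59 ± 0.14) with an edgeR adjusted p of 0.151, so it did not pass the threshold of 0.05. The value was 1.58-fold between the libraries with high Xist and 1.47-fold between those with low Xist. In bulk RNA, a different share of cells of 1 type and a different amount of RNA per cell cannot be told apart, which holds for every gene described here.

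Fasn (chr11:120805846-120824547), the synthase itself, overlapped between genotypes. It was at 188, 153 and 159 CPM in wildtype and 193, 174 and 191 CPM in labelled knockout. The highest wildtype library stood above 1 of the 3 labelled knockout libraries, and the log2 fold change of 0.16 ± 0.10 had an edgeR adjusted p of 0.516.

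Elovl6 (chr3:129532355-129638495), which extends palmitate to stearate, did not overlap between genotypes. It was at 10.2, 9.50 and 11.6 CPM in wildtype and 16.5, 14.1 and 14.2 CPM in labelled knockout, with means of 10.4 ± 1.05 and 14.9 ± 1.36 CPM (SD, n = 3 each). The fold was 1.43 (log2 fold change 0.52 ± 0.13, edgeR adjusted p = 0.151).

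Scd2 (chr19:44293674-44306864) and Scd1 (chr19:44394455-44407879) encode desaturases that place a double bond in stearate and palmitate, and they lie in the same stretch of chromosome 19. Scd2 was at 494, 372 and 412 CPM in wildtype and 617, 580 and 584 CPM in labelled knockout, with no overlap and a fold of 1.39 (log2 fold change 0.48 ± 0.12, edgeR adjusted p = 0.151). Scd1 was at 8.69, 5.97 and 6.94 CPM in wildtype and 7.81, 10.8 and 11.4 CPM in labelled knockout. Labelled knockout replicate 1, the library high for Lpin1, was the one below the highest wildtype library for Scd1, and the log2 fold change of 0.48 ± 0.19 had an edgeR adjusted p of 0.282. Between the libraries with high Xist Scd1 was 0.899 times wildtype, and between those with low Xist 1.72 times, a difference that was not tested. Both genes share sequence as paralogs, and the sources used here do not say how reads that match both were counted.

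Fads1 (chr19:10182888-10196877), the delta-5 desaturase of polyunsaturated fatty acids, was at 45.4, 42.8 and 43.3 CPM in wildtype and 62.5, 48.2 and 51.0 CPM in labelled knockout. The groups did not overlap, and the gap between the highest wildtype and the lowest labelled knockout library was small beside the spread within labelled knockout, whose SD was 7.56 CPM. The fold was 1.23 (log2 fold change 0.30 ± 0.11, edgeR adjusted p = 0.258).

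Cpt1a (chr19:3322334-3385733), on the side of oxidation, varied within each genotype more than between them. It was at 25.9, 49.6 and 68.8 CPM in wildtype and 30.7, 41.5 and 48.3 CPM in labelled knockout, with means of 48.1 ± 21.5 and 40.2 ± 8.90 CPM (SD, n = 3 each). The lowest library of each genotype was the one with high Xist. The log2 fold change was -0.26 ± 0.39 (edgeR adjusted p = 0.806), and it was 0.088 without wildtype replicate 3.

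Scaled by exon length, Scd2 had the highest level of the 10 genes, at 78.0 ± 11.4 CPM per kb in wildtype and 108.6 ± 3.68 in labelled knockout (SD, n = 3 each). Acly followed at 48.9 ± 0.52 CPM per kb in wildtype, then Fasn at 15.2 ± 1.74, Fads1 at 9.11 ± 0.28 and Cpt1a at 6.30 ± 2.81. Lpin2 at 3.35 ± 0.30, Lpin1 at 2.98 ± 0.35 and Acaca at 2.57 ± 0.37 CPM per kb came next in wildtype, with Elovl6 at 1.62 ± 0.16 and Scd1 at 1.47 ± 0.28 below them. In wildtype the ranges of neighbours in this order overlapped for Fads1 and Cpt1a, for Cpt1a and Lpin2, for Lpin2 and Lpin1, for Lpin1 and Acaca and for Elovl6 and Scd1. In labelled knockout replicate 1 Lpin1 reached 10.2 CPM per kb, which put it above Cpt1a at 4.02 and below Fads1 at 13 in the same library.

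Counted together, 7 of the 9 genes other than Lpin1 had a positive log2 fold change and 2, Lpin2 and Cpt1a, a negative one. None of the 9 passed an adjusted p of 0.05 in edgeR, against 17 of the 18690 genes tested (0.0910%), and 5 had an unadjusted p under 0.05 and were higher in labelled knockout (Acaca, Scd1, Scd2, Elovl6 and Fads1), against 8.01% of tested genes. The number with an unadjusted p under 0.05 and lower was 0 of 9, against 6.60%. The median log2 fold change of the 9 was 0.30, while that of all tested genes was 0.01. All 3 labelled knockout libraries were above all 3 wildtype libraries for 4 of the 9 (Acaca, Scd2, Elovl6 and Fads1), against 10.9% of tested genes, and below them for 0 of the 9, against 9.38%.

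The call on these genes depended on the tool and on the libraries used. DESeq2 called 3 of the 9 higher in labelled knockout, against 2.89% of the genes it gave an adjusted p: Acaca (adjusted p = 0.0103), Scd2 (0.00827) and Elovl6 (0.0156). It called 0 of the 9 lower, against 1.65%. The same 3 genes were called by edgeR when no filter on low counts was used, against 1.60% of genes, with adjusted p of 7.1e-05, 0.00629 and 0.0278. Without replicate 1 of each genotype, which are the libraries with high Xist, edgeR called Acaca (adjusted p = 0.0384), Scd1 (0.0365) and Scd2 (0.0354), against 2.06% of genes. In that setting 7 of the 9 did not overlap and were higher, against 31.7% of tested genes. Limma-voom called 0 of the 9.

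The wider list of fatty acid synthesis, elongation and desaturation holds 30 genes, 7 of them already described, and 28 were tested. In edgeR 0 passed the adjusted threshold, 12 had an unadjusted p under 0.05 and were higher in labelled knockout (8.01% of all tested genes were), and 0 were lower at that level. DESeq2 called 5 of the 28 higher, against 2.89% of the genes it gave an adjusted p, and limma-voom called 0. Some of the 28, such as Fads3, had no DESeq2 adjusted p. The median log2 fold change was 0.22, with 21 genes fitted higher and 7 lower, while 51.2% of all tested genes were fitted higher. All 3 labelled knockout libraries were above all 3 wildtype libraries for 11 of the 28 and below them for 1, against 10.9% and 9.38% of all tested genes. Genes already described are part of these counts. The 11 include Acaca, Scd2, Elovl6 and Fads1, the 12 include these and Scd1, and the 5 include Acaca, Scd2 and Elovl6. None of the 28 passed 1.5-fold in labelled knockout replicate 1 over the highest other library. Fads2, the delta-6 desaturase that acts before Fads1, had the lowest p of the list. It was at 34.2, 20.1 and 27.5 CPM in wildtype and 53.1, 44.7 and 56.9 CPM in labelled knockout, with a log2 fold change of 0.92 ± 0.17 and an edgeR adjusted p of 0.132. It was called by DESeq2 (adjusted p = 0.00013), and by edgeR with no filter on low counts (adjusted p = 1.5e-11) and without replicate 1 of each genotype (adjusted p = 0.0315). Unlike Lpin1, it was highest in labelled knockout replicate 3.

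**Figure D3:**
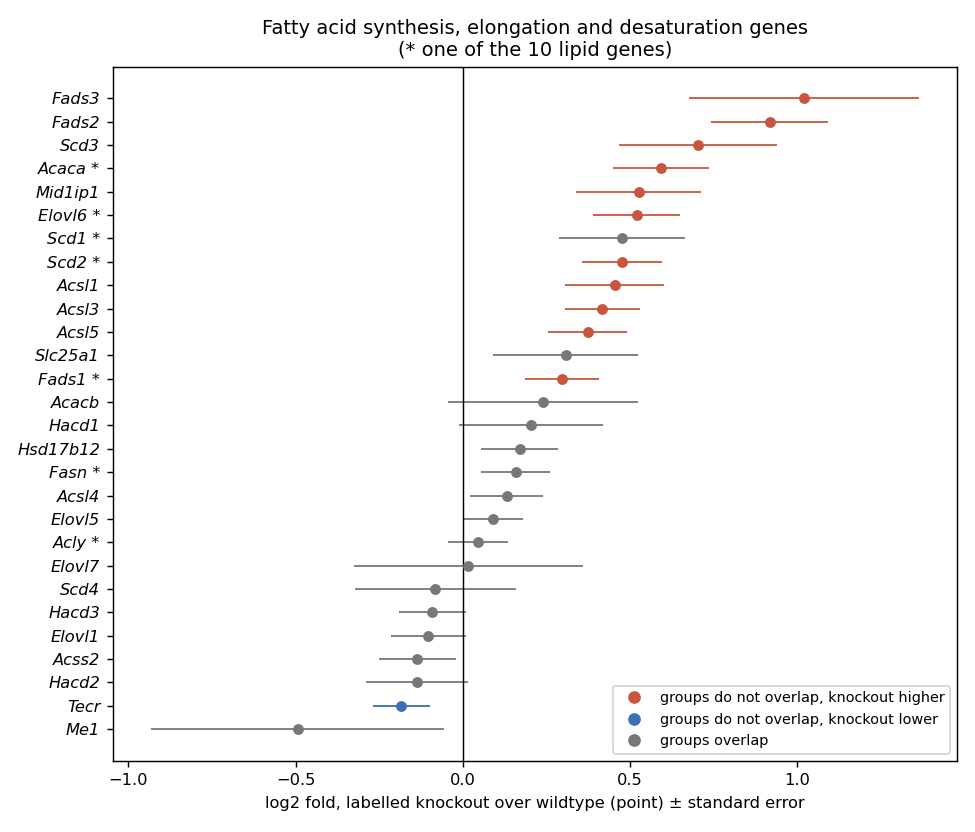
Log2 fold change (labelled knockout over wildtype, bars show the SE) of each tested gene of the fatty acid synthesis list, coloured by whether the genotypes overlap. Fads2 lies at 0.92 and Acly at 0.05, and 21 of the 28 genes lie above 0.

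Sterol synthesis, which shares its SREBP regulators with fatty acid synthesis, was described from a list of 17 genes for cholesterol synthesis and uptake, all tested. In edgeR 0 passed the adjusted threshold, 8 had an unadjusted p under 0.05 and were higher, against 8.01% of all tested genes, and 0 were lower. DESeq2 called 7 higher, against 2.89% of the genes it gave an adjusted p, and limma-voom called 0. The median log2 fold change was 0.36, and 15 genes were fitted higher and 2 lower, against 51.2% of all tested genes fitted higher. For 7 of the 17 the genotypes did not overlap and labelled knockout was higher, against 10.9%. Sqle, the squalene epoxidase, was at 18.5, 13.1 and 16.2 CPM in wildtype and 27.5, 22.0 and 27.0 CPM in labelled knockout (log2 fold change 0.68 ± 0.14, edgeR adjusted p = 0.138). The log2 fold change was 0.74 for Cyp51 and 0.67 for Idi1, both enzymes of the same route, and 0.37 for Hmgcs1, which makes HMG-CoA.

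Of all tested genes, 8.01% had an unadjusted p under 0.05 in edgeR and were higher, and 6.60% were lower. Among 13 tested SREBP and LXR regulators, 1 was higher at that level and 3 were lower. The one was Insig1, a sterol-responsive retention factor that is itself a target of SREBP, at 29.9, 21.6 and 23.9 CPM in wildtype and 37.3, 32.5 and 36.5 CPM in labelled knockout (log2 fold change 0.50 ± 0.13, edgeR adjusted p = 0.154). The 3 lower ones were Scap, the escort protein of SREBP, with a log2 fold change of -0.25, and Nr1h2 and Mlx, each at -0.24. DESeq2 called Insig1 alone of the list (adjusted p = 0.0202), against 2.89% of the genes it gave an adjusted p that were called higher. EdgeR also called Insig1 with no filter on low counts (adjusted p = 0.00473) and without replicate 1 of each genotype (0.0354). Limma-voom called 0. The list's median log2 fold change was -0.03.

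Genes of glycerolipid synthesis, the route in which the lipins act, did not share a direction. Of 19 tested, 9 were fitted higher and 10 lower, with a median log2 fold change of -0.03, and Lpin1 was the single one with its highest value in labelled knockout replicate 1. The number with an unadjusted p under 0.05 was 1 higher and 3 lower, against 8.01% and 6.60% of all tested genes. Agpat1 (log2 fold change -0.28 ± 0.09, edgeR adjusted p = 0.208) makes the phosphatidic acid that lipins use, Dgat1 (-0.40 ± 0.14, adjusted p = 0.240) turns their product into triglyceride, and Cds2 (-0.35 ± 0.11, adjusted p = 0.198) takes phosphatidic acid to CDP-diacylglycerol. Agpat2, of the same family as Agpat1, had a log2 fold change of 0.48 ± 0.22 (adjusted p = 0.342). Among the 19, those whose genotypes did not overlap were 5 that were lower and 1 that was higher in labelled knockout, against 9.38% and 10.9% of all tested genes.

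In the list for fatty acid oxidation and the carnitine shuttle, to which Cpt1a belongs, 11 of 19 tested genes were fitted higher and 8 lower, with a median log2 fold change of 0.01. The dehydrogenase Acadl, at 0.37 ± 0.12, the electron carrier Etfa, at 0.40 ± 0.12, and the reductase Decr1, at 0.40 ± 0.16, had positive log2 fold changes. The lowest edgeR adjusted p of these 3 genes was 0.181, for Etfa. DESeq2 called Etfa alone of the list (adjusted p = 0.0496), against 2.89% of the genes it gave an adjusted p that were called higher. Of the 12 tested PPAR receptors, coactivators and targets, 5 were fitted higher and 7 lower, with a median of -0.07. Ppard, a receptor for fatty acids, was at 41.4, 41.0 and 37.8 CPM in wildtype and 33.2, 30.4 and 30.6 CPM in labelled knockout (log2 fold change -0.35, edgeR adjusted p = 0.162). DESeq2 called Ppard alone of the 12 (adjusted p = 0.0255), against 1.65% of the genes it gave an adjusted p that were called lower. The log2 fold change of Ppargc1b, a coactivator, was -0.54. Of 10 tested genes for lipid droplets and lipases, 3 were fitted higher and 7 lower, and Plin2, a coat protein of lipid droplets, had a log2 fold change of -0.32 (adjusted p = 0.309).

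The genes most like Lpin1 over the 6 libraries were ranked by Pearson's r of log2 CPM among the 1152 tested genes with a mean of at least 1 CPM and a range of at least 1 on the log2 scale. The 10 highest were Tyw3 (r = 0.980), Arfgef3 (0.971), Amn1 (0.951), Fbxo48 (0.942), Slc16a4 (0.909), Ankle1 (0.909), CT010445.1 (0.892), Kcnq1ot1 (0.885), Itgb1bp2 (0.880) and Zfp185 (0.820). With 6 libraries of which 1 stands apart, these values mainly rank genes on that library, and no p is given. Tyw3, a gene of transfer RNA modification, was at 7.80, 7.65 and 7.77 CPM in wildtype and 16.4, 7.52 and 6.75 CPM in labelled knockout. Ankle1, an endonuclease gene, was at 21.3, 18.1 and 20.9 CPM in wildtype and 41.2, 19.3 and 20.4 CPM in labelled knockout. Kcnq1ot1 is antisense to Kcnq1, and with the counting strand unknown their reads cannot be told apart. None of the 10 was in a lipid list. Among the 9 genes followed beside Lpin1, Fads1 had the highest r with it, at 0.71, followed by Lpin2 at 0.56 and Acaca at 0.49, and Acly had the lowest, at -0.67.

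Genes beside Lpin1 on chromosome 12 did not stand out in labelled knockout replicate 1. Within 500 kb, 5 other genes were tested: Greb1, E2f6, Rock2, Pqlc3 and 2410004P03Rik. Rock2, the most highly counted of them, was at 48.9, 62.1 and 71.9 CPM in wildtype and 67.8, 57.1 and 51.2 CPM in labelled knockout. Greb1, the nearest, was at 2.25, 1.47 and 1.64 CPM in wildtype and 1.67, 1.22 and 0.675 CPM in labelled knockout. No annotated gene model overlaps Lpin1, so its reads were not shared with one.

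**Figure D4:**
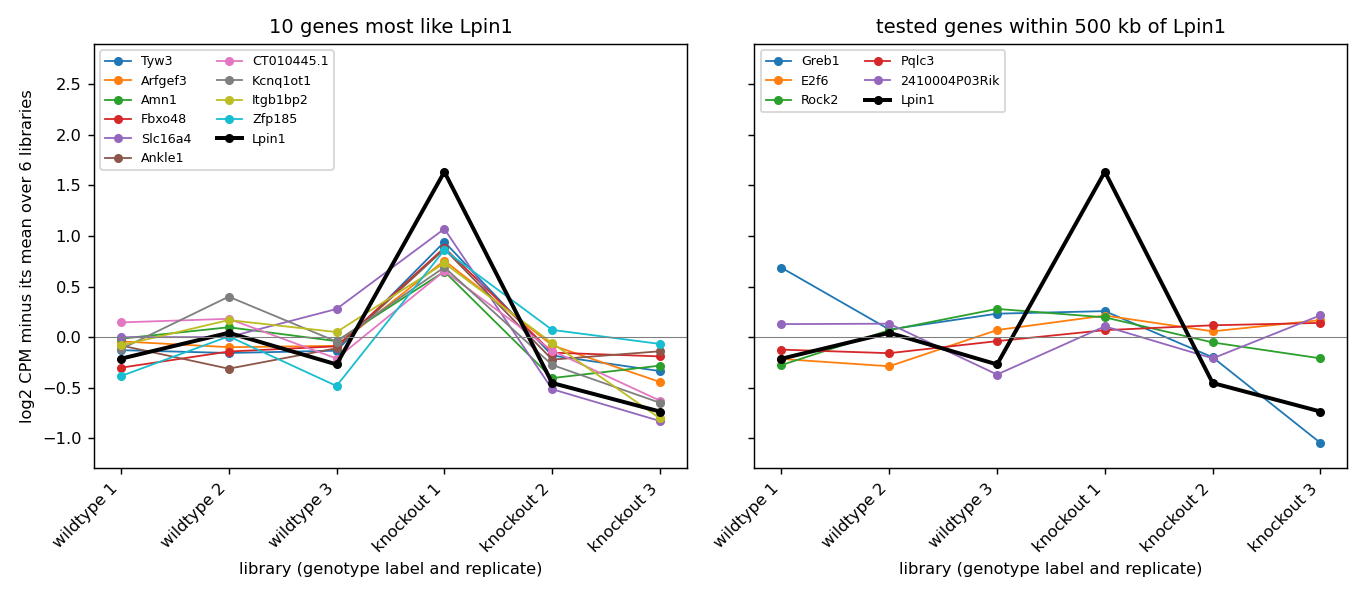
Log2 CPM, centred on each gene's mean over the 6 libraries, for Lpin1 and the 10 genes most like it and for its tested neighbours within 500 kb. The like genes are highest in labelled knockout replicate 1, while among the neighbours none exceeds 1.5 times its highest other library there.

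Fat and muscle express Lpin1 strongly, so their markers were read in the same libraries. Of 13 adipocyte markers, 4 passed the filter on low counts, and Lep and Adrb3 were at 0 in all 6 libraries, which allows up to 3 counts, or 0.0357 to 0.0519 CPM, in each. Adipoq, the adipocyte hormone gene, had 0 to 6 counts per library. The summed adipocyte level was 11.2 to 15.3 CPM in wildtype and 10.8 to 12.6 CPM in labelled knockout, with 10.8 in the library high for Lpin1, and most of it came from Lipe. Of 7 brown adipocyte markers Cidea and Elovl3 were at 0 in all libraries, and the sum was 5.47 to 7.20 CPM in wildtype and 6.08 to 8.03 CPM in labelled knockout. The summed level of 10 skeletal muscle markers was 32.1 to 34.6 CPM in wildtype and 31.1 to 36.6 CPM in labelled knockout, highest in the library high for Lpin1, and Mylpf gave most of it in every library. Adipoq, Mylpf and Lipe are named after their values were seen.

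Summed markers of B cells, dendritic cells, macrophages and red cells were each lowest in the library high for Lpin1. The 6 B cell markers summed to 50.2, 41.9 and 49.5 CPM in wildtype and 28.5, 49.4 and 59.6 CPM in labelled knockout. Red cell markers summed to 9.09, 57.6 and 40.8 CPM in wildtype and 3.37, 22.95 and 34.2 CPM in labelled knockout. These sums were not tested. The summed macrophage level was 87.9 to 120 CPM in wildtype and 69.4, 113 and 224 CPM in labelled knockout, the highest in replicate 3. Dendritic cell markers summed to 94.3 to 96.7 CPM in wildtype and 56.9, 103 and 128 CPM in labelled knockout. The part of these cells in the levels of Lpin1, Scd1 and Cpt1a was not tested.

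Proliferation markers were higher in labelled knockout beside Acaca, Scd2 and Elovl6. All 8, a list added after the data were seen, had a positive log2 fold change with a median of 0.56, and their summed level was 2137 to 2758 CPM in wildtype and 2800 to 3956 CPM in labelled knockout. In edgeR 0 of the 8 passed the adjusted threshold, and all 8 had an unadjusted p under 0.05 (8.01% of all tested genes were higher at that level). DESeq2 called 7 (2.89% of the genes it gave an adjusted p) and limma-voom 0. Without replicate 1 of each genotype edgeR called 1 of the 8, against 2.06% of genes. Their part in the levels of the fatty acid and sterol genes was not tested.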

How the data were processed

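Thymocyte RNA from 6 mice was isolated with a NucleoSpin column kit and made into stranded messenger RNA libraries, per the labels' protocols. STAR 2.5.4b, featureCounts and the genome build GRCm38 are named in the submitters' processing notes; the sources used here name no annotation, strand setting or rule for multi-mapped reads. The authors deposited raw counts per gene, whole numbers that are not normalised. GENCODE M21 gave symbols, positions and exon lengths for all 55536 identifiers.

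Genes were filtered with edgeR's filterByExpr, scaled by TMM and compared with edgeR 4.0.16 (robust quasi-likelihood fit, R 4.3.3, 4 residual degrees of freedom), with Benjamini-Hochberg adjustment over all 18690 genes tested and a threshold of 0.05. DESeq2 1.42.0, limma-voom (limma 3.58.1), other filters, a replicate block and left-out libraries were alternatives. The fit was also run on simulated counts in which no library was set apart, and the outcome is not reported here. The biological coefficient of variation was 18.7%. Nothing says more of the mice than that there were 3 per group, so p-values measure the spread between these libraries. Floors cover counting error only.

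The 10 genes and the gene lists were chosen with earlier results of these data known. Named genes were the 10 members, up to 4 genes of smallest unadjusted p per list, markers at 0 in every library and the 10 genes most like Lpin1 by Pearson's r, clone names with Gm or Rik left out. Lpin3, the neighbours of Lpin1 and single markers fall outside this rule, and the markers were named after their values were seen. Not every gene the rule selects is reported here.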

Additional observations from a re-analysis of the deposited data

How the results depend on the processing

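Over all genes, edgeR called 17, against 602 with DESeq2, 840 with no filter on low counts, 762 without replicate 1 of each genotype and 8 to 29 with 1 library left out (8 without wildtype replicate 2, 29 without labelled knockout replicate 1). Of the 9 lipid genes other than Lpin1, 0 were called, against 3 with DESeq2, 3 with no filter and 3 without replicate 1 of each genotype; for the fatty acid list 0 became 5, 6 and 5. The number of the 10 genes past 1.5-fold in labelled knockout replicate 1 was 1 against the highest and 2 against the mean of the other 5 libraries. The number that did not overlap and were higher went from 4 to 7 of the 9, and in the list from 11 to 17, without replicate 1 of each genotype, an alternative chosen after seeing the data. The share of all tested genes went from 10.9% to 31.7% in the same step. The log2 fold change of Lpin1 was -0.48 without replicate 1 of each genotype and ran from -0.44 to 1.08 with 1 library left out, that of Lpin2 from -0.10 to 0.026 (the latter without wildtype replicate 2; 0.0077 without labelled knockout replicate 3) and that of Cpt1a from -0.56 to 0.088 (the latter without wildtype replicate 3). Over all the settings for the 9 tested genes, 123 values kept direction and side of the threshold, 9 passed it and 3 changed sign; the cause was not tested. With the replicate number as a block, 9 genes were called in all and none of the lipid genes changed sides. Deviations of same-numbered libraries correlated at -0.11, 0.03 and -0.12, and those of differently numbered ones at -0.08 to 0.16. With 3 libraries per genotype these values show no pairing by number but cannot exclude one. Low counts limit Lpin3 and the fat markers at this depth.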

Other observations

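Glucocorticoid-induced genes and clock genes were also described in the 6 libraries. Of 12 tested glucocorticoid-induced genes, 0 had their highest level in labelled knockout replicate 1, 4 were fitted higher and 8 lower in labelled knockout, and the median log2 fold change was -0.18. Ddit4 was at 68.9, 91.1 and 105 CPM in wildtype and 59.0, 50.6 and 63.4 CPM in labelled knockout (log2 fold change -0.61 ± 0.15, edgeR adjusted p = 0.151, DESeq2 adjusted p = 0.00725). Txnip was at 276, 322 and 305 CPM in wildtype and 227, 250 and 229 CPM in labelled knockout (log2 fold change -0.35 ± 0.10, edgeR adjusted p = 0.177, DESeq2 adjusted p = 0.0218). In edgeR 0 of the 12 passed the adjusted threshold and 5 had an unadjusted p under 0.05, all lower (6.60% of all tested genes were lower at that level). DESeq2 called 3 lower, against 1.65% of the genes it gave an adjusted p, and limma-voom 0.

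Of 16 tested circadian clock genes, 2 were fitted higher and 14 lower, with a median log2 fold change of -0.27, and 1 was highest in labelled knockout replicate 1. Nr1d2, a repressor of the clock, was at 26.6, 33.2 and 28.3 CPM in wildtype and 19.2, 25.0 and 20.7 CPM in labelled knockout (log2 fold change -0.44 ± 0.13, edgeR adjusted p = 0.183). In edgeR 0 of the 16 passed the adjusted threshold and 6 had an unadjusted p under 0.05, all lower, against 6.60% of all tested genes. DESeq2 called 1 lower, against 1.65%, and limma-voom 0. Per1 stands in both lists. Of 8 immediate early genes 3 were fitted higher and 5 lower and 0 were highest in labelled knockout replicate 1.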
